A study of Mus musculus with 2 samples.

Results

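One microarray compared RNA of Th1-polarized lymphocytes with RNA of Th0 lymphocytes, and it is 1 of the 2 arrays of the series. It was chosen by its title, and the values described are its deposited log2 ratios for 17501 genes, averaged from the 26926 probes (of 36547) that carry exactly 1 gene symbol. Per the labels, both RNAs came from lymphocytes of a TRP-1 mouse polarized in culture, the Th1 RNA carried the dye Cy5 and the Th0 RNA the dye Cy3. The number of mice, the sort, the cytokines and the days in culture are not named in these sources. The other array of the series set Th17-polarized lymphocytes of a TRP-1 mouse against Th0 RNA in the same dyes, and its values stand beside those of the Th1 and Th0 array where stated.

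Th1 cells are the branch of helper T cells that makes interferon gamma. Interleukin 12, acting through STAT4, and interferon gamma promote this fate together with the transcription factor T-bet, which opens the interferon gamma gene and the genes of the interleukin 12 and interleukin 18 receptors. Th0 is the usual name for activated cells that received no lineage-directing cytokines, and TRP-1 mice are known as a line whose helper T cells recognise a protein of pigment cells and melanoma.

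The array has no replicate and no dye swap, so no value has a replicate error and no p-value is given. A gene is called here when it is at least 2-fold apart, an absolute log2 ratio of 1 or more. Of the 17501 genes, 1784 (10.2%) were called, 1211 (6.92%) on the negative side and 573 (3.27%) on the positive side. These percentages are the background for every list below. The median gene lay at −0.08 and the quartiles at −0.40 and 0.22. Setting the median gene to 0 changed the negative share of the called genes from 67.9% to 60.4%. Setting 16 widely expressed control genes to 0, which lowers every value by 0.27, changed that share to 87.1%. Both centrings are given in brackets after the median of each list, first on the median gene and then on the control genes.

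The table does not say which RNA is the numerator. Read as titled, a positive value is higher in Th1 than in Th0 cells, and read the other way it is higher in Th0 cells. Of the 5 marker genes given for the Th1 population, 4 lay on the negative side, so on the titled reading the data go against the label. On the Th17 and Th0 array, with the same dyes, the list of 16 Th17 genes had a median of −1.80. Of these, 11 were called negative and 0 positive, against 5.52% and 2.9% of all genes there. The titled reading goes against the label there too. Signs are therefore printed as deposited, and "positive" and "negative" name sides of the ratio and not cell populations.

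Different probes of a gene were the sole repeat measurement, and they shared RNA, array and dyes. Over 5886 genes with 2 or more probes, the pooled SD between probes was 0.51 on the log2 scale. Gapdh, a glycolysis gene with 30 probes, had a mean of 0.25 and an SD of 0.08. Actb, the actin gene, had a mean of 0.51 and an SD of 0.24 over 32 probes. Sdha, a respiratory enzyme gene with 77 probes, spread most of these 3, with a mean of 0.23 and an SD of 0.53. Of the 346 genes with several probes that were called by their mean, 316 had all probes on 1 side of 0, and 108 had every probe past 2-fold on the same side, 56 positive and 52 negative.

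Genes that lymphocytes are not known to transcribe were viewed as a group that may lie near background, though their signal was not measured. Olfactory, vomeronasal and taste receptors, keratins, defensins and placental or reproductive families made up 1220 measured genes, with a median of −0.32. Past 2-fold lay 212 members (17.4%) on the negative side and 8 (0.656%) on the positive side. Their negative share was above the 6.92% of all genes and their positive share below the 3.27%. Placental prolactins and reproductive homeobox genes stood furthest out, with 18 of 44 members called negative and 0 called positive. Genes of the ribosome, the proteasome and the respiratory chain, which every cell transcribes, lay in a narrow band instead, with 7 of 278 called positive and 2 called negative. A ratio that equals a small whole number over another can come from a channel of very few signal units. Among the 1211 negative genes, 193 (15.9%) had a probe whose ratio matched a weaker channel of 5 units or less, as did 20 of the 573 positive genes (3.49%). Of the 1220 family genes, 66 (5.41%) had such a probe, against 4.06% of all genes. Such a match can also arise by chance, more readily at large ratios. The part of low signal in the negative values was not tested.

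**Figure D1:**
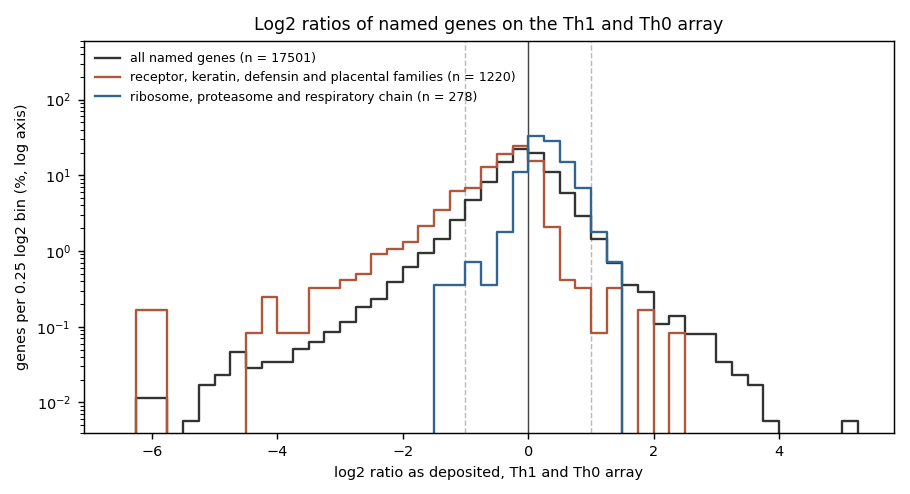
Share of genes in each 0.25-wide bin of the deposited log2 ratio of the Th1 and Th0 array (log axis), for all 17501 named genes, for 1220 genes of families not known to be transcribed in lymphocytes and for 278 genes of ribosome, proteasome and respiratory chain; dashed lines mark 2-fold. The receptor, keratin, defensin and placental families reach far to the negative side (17.4% past 2-fold) and little to the positive side (0.656%).

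The markers of the Th1 population came first. The defining cytokine gene Ifng lay at −2.02, a 4.06-fold difference. Tbx21, which encodes T-bet, lay at −1.25, and Il18r1, the binding chain of the interleukin 18 receptor, at −2.03. Csf2, the gene of the growth factor GM-CSF, was the furthest of the 5 on the negative side, at −2.97 (7.85-fold). Prf1, which encodes the pore-forming protein perforin, lay on the opposite side at 3.43 (10.8-fold). Each of the 5 rests on 1 probe, and 0 of them matched a weaker channel of that size. On the Th17 and Th0 array the same genes lay at −0.83 (Ifng), 0.87 (Tbx21), −0.57 (Il18r1), −0.06 (Csf2) and 3.24 (Prf1), so Prf1 was past 2-fold on both arrays and the other 4 on the Th1 and Th0 array.

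The receptors that carry Th1-inducing signals lay mostly near or below 0. Their list had a median of −0.25 (−0.17, −0.51) over 10 genes, with 3 called negative and 0 called positive. Il18rap, the signalling chain that pairs with Il18r1, lay at −1.24, and Ifngr1, the binding chain of the interferon gamma receptor, at −1.03. Ifngr2, the second chain of that receptor, lay on the other side at 0.48. Il12rb2, the inducible chain of the interleukin 12 receptor, lay at −0.59, and its partner Il12rb1 at 0.08. Among the kinases bound to these receptors, Jak1 lay at 0.45, Jak2 at 0.19 and Tyk2 at −0.09, all inside 2-fold. Il27ra, the receptor chain for interleukin 27, lay at −0.40.

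Other transcription factors of the Th1 programme were mostly inside 2-fold. Their list had a median of −0.02 over 11 genes, which turned to 0.05 when centred on the median gene and stayed negative, at −0.29, when centred on control genes. Eomes, a T-bet relative used by cytotoxic cells, had probes at 0.29 and 4.29, so its mean of 2.29 rests on a single probe. Irf1, an interferon gamma target, lay at −0.81 over 4 probes, and Ets1 at −0.69 over 3. Stat4, which relays interleukin 12, lay at −0.02, Runx3, a partner of T-bet, at 0.00, Hlx at −0.36 and Bhlhe40 at 0.04. Runx1, Id2 and Zeb2 lay at −0.11, 0.14 and 0.61.

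Products made by Th1 cells lay on both sides. In the list of effector cytokines and surface proteins, 3 of 15 genes were called negative (5 when centred on control genes) and 2 positive, with a median of −0.16 (−0.08, −0.42). Ltb and Lta, which together form membrane lymphotoxin, lay at −1.71 and −0.97. Tnf, the gene of tumour necrosis factor, lay at −0.49, inside 2-fold. The chemokine receptors used by Th1 cells for entry into inflamed tissue lay on the same side, Cxcr6 at −1.65 and Cxcr3 at −0.84. The inflammatory chemokine genes Ccl3, Ccl4 and Xcl1 lay opposite at 1.90, 0.91 and 0.97. Havcr2, which encodes the inhibitory receptor Tim-3, lay at 2.69 (6.47-fold).

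**Figure D2:**
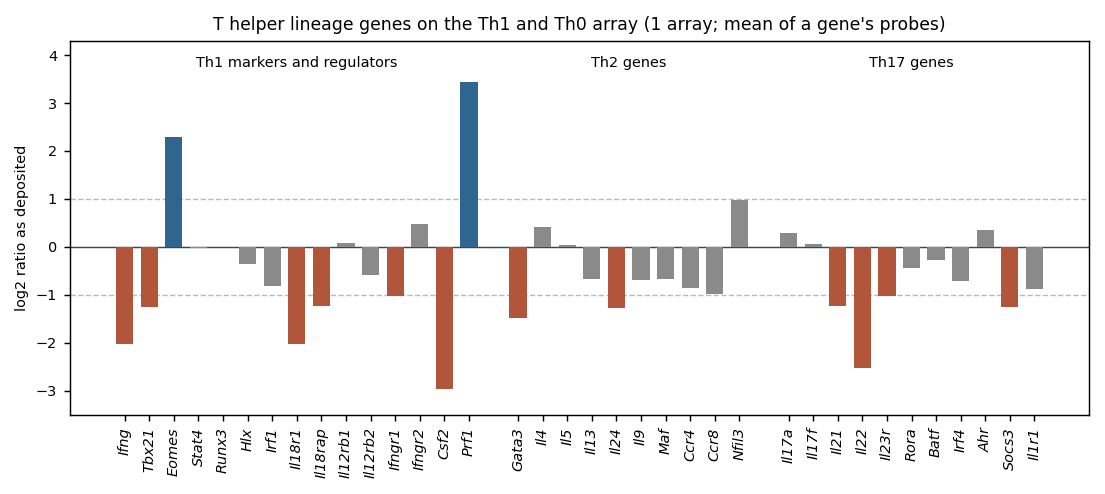
Deposited log2 ratios of T helper lineage genes on the Th1 and Th0 array, 1 bar per gene (mean of its probes, 1 array, no error bar); blue and brown bars are at least 2-fold positive and negative, grey bars inside 2-fold, dashed lines 2-fold. Ifng, Tbx21, Il18r1, Il18rap and Csf2 stand below −1, with Gata3, Il22 and Il21, while Prf1 stands at 3.43.

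Called genes of the Th2 and Th17 lists lay mainly on the negative side, as did 67.9% of all called genes. The Th2 list had a median of −0.49 (−0.41, −0.76) over 14 genes, with 2 called negative (4 when centred on control genes) and 0 positive. The Th2 cytokine genes Il4, Il5 and Il13 lay inside 2-fold, at 0.42, 0.04 and −0.67. Gata3, the master regulator of Th2 cells, lay at −1.49 and Il24 at −1.27, while Nfil3 lay at 0.98, just inside 2-fold. Ccr8 and Ccr4, the chemokine receptors of Th2 cells, lay at −0.99 and −0.86. The Th17 list had a median of −0.36 (−0.28, −0.62) over 16 genes, with 4 called negative and 1 positive. The defining cytokine genes Il17a and Il17f lay near 0, at 0.29 and 0.06. Il22, an epithelial-acting cytokine, lay at −2.53 and Il21 at −1.23. Socs3, a brake on cytokine signalling, lay at −1.26 and Il23r, the interleukin 23 receptor chain, at −1.02. Among transcription factors of the Th17 fate, Irf4 lay at −0.71, Rora at −0.44, Batf at −0.27 and Ahr at 0.35. Tnfsf11, which encodes the bone-resorption ligand RANKL, was the 1 positive member, at 1.07. Il10, the gene of an anti-inflammatory cytokine, lay at −2.35 (5.10-fold) and was the 1 called gene of 16 in the regulatory T cell list. The median of that list was 0.12 (0.20), and it turned to −0.15 when centred on control genes.

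T cell genes were below 0 more often than above. The list of the T cell receptor complex and its proximal signalling had a median of −0.29 (−0.22, −0.56) over 42 genes, with 30 below 0, 4 called negative and 2 called positive. Cd3d, a chain of the CD3 complex, lay at −1.43, whereas Cd3e lay at −0.44, Cd3g at −0.07 and Cd247, the zeta chain, at −0.29. The coreceptor gene Cd4 lay at −1.17, and Cd8a and Cd8b1, coreceptor genes of the other T cell branch, at −0.13 and −0.05. Trat1, an adaptor that stabilises the receptor complex, lay at −1.22 over 3 probes and Ubash3a, a negative regulator of receptor signalling, at −1.24. Its relative Ubash3b, which is not restricted to lymphocytes, lay opposite at 1.86, and the kinase gene Txk at 1.58.

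Genes of naive and resting T cells leaned further to the negative side. Their list had a median of −0.51 (−0.43, −0.78) over 27 genes, with 7 called negative and 2 positive (9 and 0 when centred on control genes). Satb1, a chromatin organiser of T cells, lay at −1.84 with probes at −2.17 and −1.51. The antiproliferative genes Slfn1, Slfn2 and Btg1 lay at −1.58, −1.01 and −1.16. Il7r, the survival receptor of resting T cells, lay at −1.29 and Ccr7, the lymph node homing receptor, at −1.20. Of the 2 positive members, Myb had probes at −0.51 and 2.54, so its mean of 1.01 rests on a single probe. Pecam1, also known as an endothelial and myeloid gene, lay at 1.07 with 3 probes between 0.87 and 1.28.

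All 8 measured Gimap genes lay below 0. These encode GTPases that support lymphocyte survival and sit beside each other in the genome. Gimap4 was furthest at −1.22 and the 1 called member (3 when centred on control genes), and Gimap3 followed at −0.96. The other 6 lay between −0.77 for Gimap9 and −0.38 for Gimap1, with a list median of −0.64 (−0.56, −0.91). On the Th17 and Th0 array, where 5.52% of all genes were called negative, 6 of the 8 were above 0, with Gimap4 at 0.34 and Gimap7 at 0.64, none of them called.

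Called members of the Ms4a family of membrane proteins lay on both sides. Ms4a4b and Ms4a6b, which T cells are known to express, lay at −2.23 and −2.15, and Ms4a4c and Ms4a4d at −4.43 and −1.99. Ms4a4c, at 21.5-fold, was among the 10 lowest genes with 1 probe and no match to a weak channel. Ms4a2, the beta chain of the high-affinity IgE receptor of mast cells and basophils, lay on the positive side at 2.30, and Ms4a3, a gene of granulocyte precursors, at 1.76 with both probes past 2-fold (1.62 and 1.90). The B cell gene Ms4a1 lay at −0.18. Ms4a7, a macrophage gene, lay at −0.71, against most other macrophage genes, and Ms4a6d and Ms4a6c at −0.08 and 0.05. In all, 4 of 16 members were called negative and 2 positive.

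The list furthest from the background on the positive side was that of mast cell and basophil genes. Of its 26 measured members, 18 were called positive and 0 negative, against 3.27% and 6.92% of all genes, and the median was 1.77 (1.84, 1.49965). In a culture of many cells, more cells of a type and more RNA per cell cannot be told apart, and the share of these cells was not measured. The proteases stood highest. Prss34 and Mcpt8, serine proteases of basophil granules, lay at 3.31 (9.91-fold) and 2.9957 (7.98-fold). Of the mast cell proteases, Mcpt2 lay at 2.71, Cma1 at 2.28, Mcpt1 at 1.45, Mcpt4 at 1.40 and Mcpt9 at 0.70. Mcpt2 matched a weaker channel of at most 5 units, and the mast cell proteases are related copies whose probes may share signal. Tpsg1 and Tpsb2, which encode tryptases, lay at 2.34 and 1.71, but the tryptase gene Tpsab1 at 0.18. Cpa3, the carboxypeptidase of mast cell granules, lay at 1.82 with probes at 1.31 and 2.34.

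Surface receptors, mediators and regulators of mast cells and basophils lay on the same side. Fcer1a, the IgE-binding chain of the high-affinity receptor, lay at 2.67 (6.38-fold) and Kit, the receptor for stem cell factor, at 2.43. Slc18a2, which loads histamine into granules, lay at 2.61 with probes at 2.44 and 2.79, and Hdc, the enzyme that makes histamine, at 1.85. The leukotriene pathway was split, with Alox5ap at 1.94 and Alox5 at 1.58 but Ltc4s at 0.33. Of the transcription factors, Gata2 lay at 2.62, Gata1 at 0.87 and Mitf at 0.26. Below 0 lay Rgs13, at −0.82, and Mrgprb2, at −0.07.

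**Figure D3:**
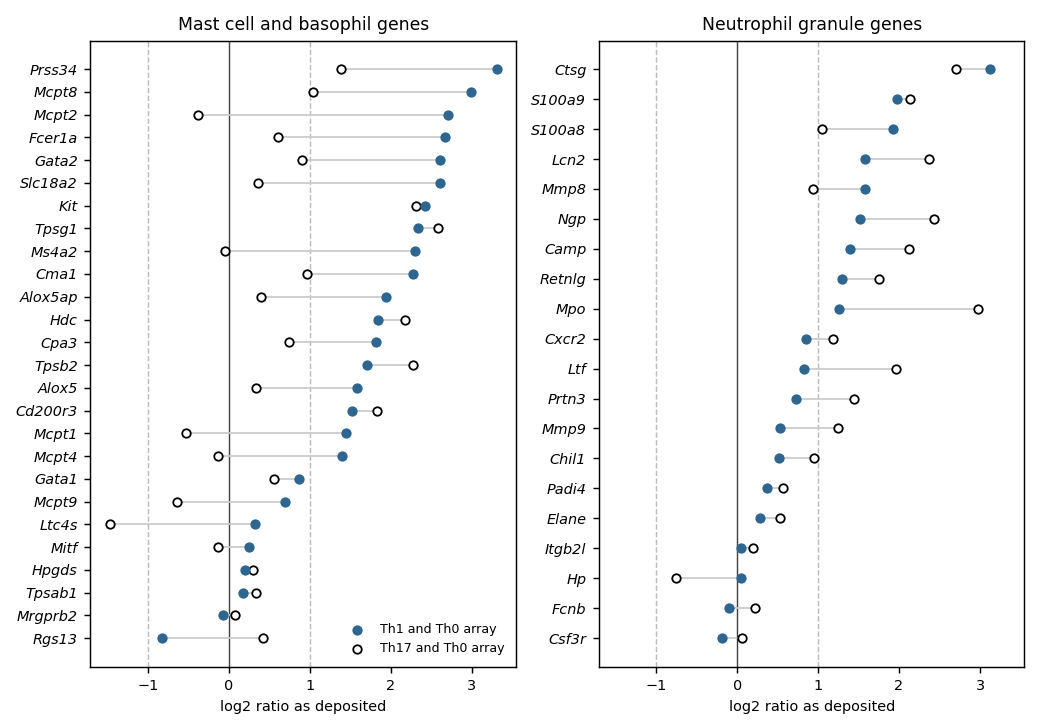
Deposited log2 ratios of 26 mast cell and basophil genes (left) and 20 neutrophil granule genes (right) on the Th1 and Th0 array (blue) and the Th17 and Th0 array (open), 1 array each; dashed lines mark 2-fold. On the Th1 and Th0 array 18 of the 26 mast cell and basophil genes lie past 2-fold on the positive side and 0 on the negative side. On the Th17 and Th0 array 7 lie past 2-fold on the positive side and 1 on the negative side.

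On the Th17 and Th0 array, Fcer1a, Ms4a2, Slc18a2 and Gata2 lay at 0.61, −0.05, 0.36 and 0.90, all inside 2-fold. Kit (2.31), Tpsg1 (2.59) and Hdc (2.18) were past 2-fold on both arrays. Of the 26 members, 7 were called positive and 1 negative on the Th17 and Th0 array, against 2.9% and 5.52% of all genes. The list's median there was 0.41. With 1 array each, the difference between the arrays was not tested, and both arrays carry Th0 RNA.

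GATA factors bind a short motif, and the promoters of this list were searched for AGATAA on both strands. The windows were RefSeq promoters of build GRCm38.p6, from 250 bases before to 50 bases after each annotated start. Of 22 members with such an entry, 8 (36.4%) held the motif, against 10.6% of 13883 named genes. A match is a description of the letters and not a binding site. Rgs13, at −0.82, is among the 8 holders, so the motif did not fix the side. The 60-base windows of the 3 members with the largest ratios among those that hold the motif are shown, with the motif in capitals. They lie at chr17:25298334-25298393 (+), chr1:173227289-173227348 (−) and chr19:59260628-59260687 (+), in that order.
Prss34: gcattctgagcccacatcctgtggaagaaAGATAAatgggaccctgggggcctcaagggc
Fcer1a: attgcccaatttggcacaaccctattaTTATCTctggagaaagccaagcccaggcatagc
Slc18a2: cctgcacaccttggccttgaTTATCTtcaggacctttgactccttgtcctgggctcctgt

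Eosinophil-associated ribonucleases lay on both sides. Ear3, Rnase2a and Ear10 lay at 3.88 (14.7-fold), 3.73 and 3.71, 3 of the 4 highest genes with 1 probe and no weak-channel match. Rnase2b and Ear14 lay opposite, at −2.01 and −1.80, and Ear6 at −0.36. These are closely related copies, and a probe may read more than 1 of them. Prg2, the major basic protein of eosinophil granules, lay at 2.07. The more restricted eosinophil genes were lower, with Epx, the eosinophil peroxidase, at 0.88, Prg3 at 0.12, Ccr3, the eotaxin receptor, at −0.11 and Il5ra, the interleukin 5 receptor, at −0.71. Over 13 members, 5 were called positive and 2 negative, with a median of 0.81 (0.88, 0.54).

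Macrophage and monocyte genes formed the largest positive group by number. Of 48 measured members, 20 were called positive, 0 were called negative and 42 lay above 0, with a median of 0.73 (0.81, 0.46). Lyz1, a lysozyme gene, had probes at 2.71 and 3.23. The 4 probes of Lyz2, the other lysozyme gene, disagreed, from −1.35 to 2.90 with a mean of 1.79 and a median of 2.82. Apoe, a lipid carrier made by macrophages, lay at 3.54 (11.7-fold). Mpeg1, a pore-forming protein of phagocytes, lay at 2.50 and Cd68, a lysosomal marker of macrophages, at 1.57 with probes at 1.53 and 1.62. The 3 genes of complement C1q lay at 1.49 (C1qa), 1.98 (C1qb) and 1.44 (C1qc). Adgre1, which encodes F4/80, lay at 1.35.

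Genes of alternatively activated macrophages, the state induced by interleukin 4, were among them. Arg1, which breaks down arginine, lay at 2.27 and Mrc1, the mannose receptor, at 1.99. Chil3 and Chil4, chitinase-like proteins, lay at 2.16 and 2.84 with all 4 probes between 2.12 and 2.90. Retnla, another gene of that state, lay at 0.12. Nos2, the arginine-using enzyme of classically activated macrophages, lay at 0.57. Monocyte genes were lower, with Cd14 at 0.84, Ccr2 at −0.06 and Itgam, the integrin chain CD11b, at 0.03. On the Th17 and Th0 array Arg1 lay at −1.65, Lyz1 at −0.87, Mpeg1 at −0.42 and Chil3 at −0.43, while C1qb lay at 2.01.

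Neutrophil granule genes lay mostly on the positive side. Of 20 members, 9 were called positive and 0 negative, with a median of 0.84 (0.92, 0.57). Ctsg, which encodes the granule protease cathepsin G, lay at 3.12 (8.68-fold). S100a8 and S100a9, which form calprotectin, lay at 1.92 and 1.98. The secondary granule genes Ngp, Camp, Lcn2 and Ltf lay at 1.52, 1.39, 1.58 and 0.83. Mpo, the myeloperoxidase gene of precursors, lay at 1.26 over 3 probes, and Elane, the elastase gene of the same stage, at 0.28. On the Th17 and Th0 array 12 of the 20 were called positive, where 2.9% of all genes were, among them Mpo at 2.98 and Ngp at 2.43. The list's median there was 1.21.

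Receptors and adaptors shared by these innate cells followed. Of 27 Fc receptors and adaptors, 10 were called positive and 1 negative. The median was 0.26 (0.33) and turned to −0.01 when centred on control genes. Fcer1g, the signalling chain shared by IgE and IgG receptors, lay at 2.98 (7.90-fold) and Tyrobp, the adaptor DAP12, at 2.52. The low-affinity IgG receptor genes Fcgr3, Fcgr2b and Fcgr4 lay at 1.87, 1.62 and 1.46, while the high-affinity receptor gene Fcgr1 lay at −0.49. Csf2rb2, a receptor chain for interleukin 3, lay at 2.48. Ccl6 and Ccl9, chemokines made by myeloid cells, lay at 2.67 and 2.81, and Il6 at 2.47.

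Markers of other cell types gave mixed counts. Of the 5 measured B cell markers, 0 were called positive and 1 negative, and of 5 dendritic cell markers 0 positive and 2 negative. Of the 2 negative dendritic cell markers, Siglech had 1 probe at −2.94, with a weak-channel match, and 1 at −0.17. Of the 4 measured red cell markers 0 were called on either side. Of 5 eosinophil markers 1 was called positive and 0 negative, and of 5 markers of natural killer and CD8 cells 1 positive and 1 negative. Longer lists of these cell types held positive members too, with Itgax (1.95), Tcf4 (1.62) and Clec10a (1.43) among 16 dendritic cell genes, Btk (1.78) among 15 B cell genes and Car2 (2.40) among 11 red cell genes. All 7 measured markers of mast cells and basophils were called positive, as were 6 of 7 macrophage and 4 of 6 neutrophil markers, while 2 of 7 T cell markers were called negative. These short sets reuse genes described above and are not separate support. In the longer lists, 18 of 26 mast cell and basophil, 20 of 48 macrophage and 9 of 20 neutrophil genes were called positive. The share over all genes was 3.27%. Whether a different mix of cells in the 2 RNAs accounts for any gene group described here was not tested.

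**Figure D4:**
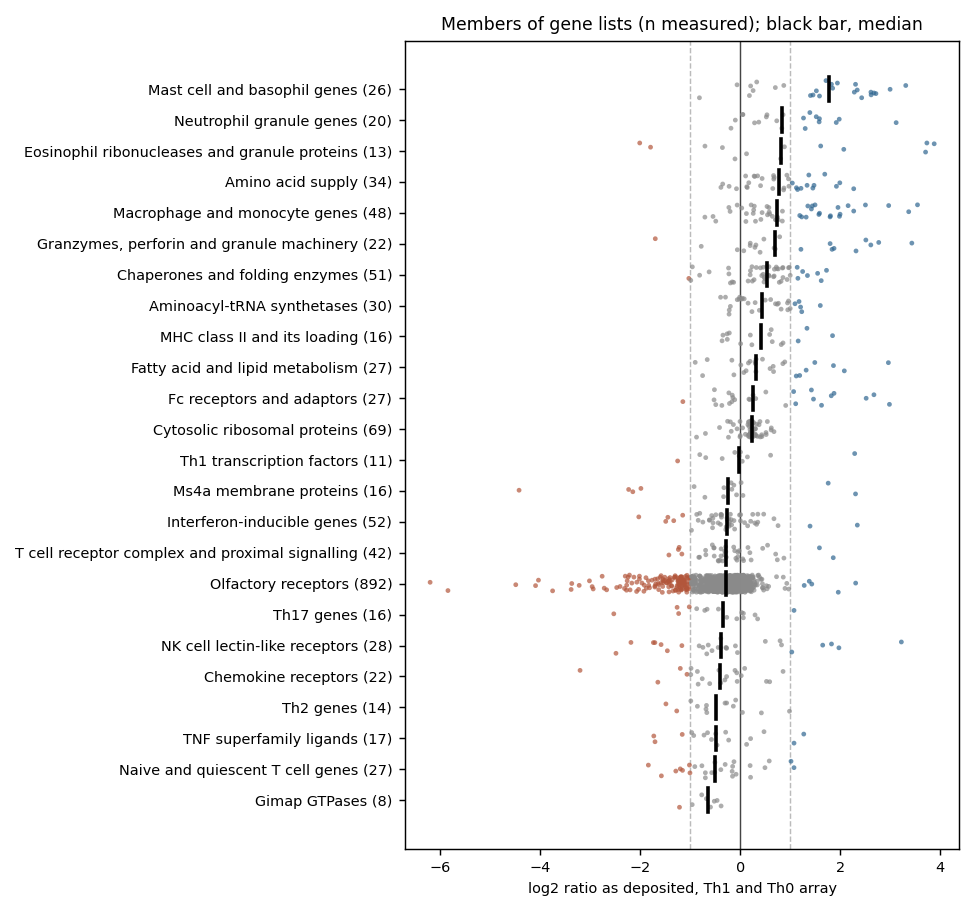
Deposited log2 ratios of the members of 24 gene lists on the Th1 and Th0 array, 1 dot per gene, with the list median as a black bar and the number of measured members in brackets; vertical jitter carries no value and dashed lines mark 2-fold. Among these 24 lists, mast cell and basophil genes have the highest median (1.77) and Gimap GTPases the lowest (−0.64). Lists not shown lie lower, among them placental prolactins and reproductive homeobox genes (−0.69) and the Th1 markers (−2.02).

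Cytotoxic granule genes lay mostly on the positive side. Of 22 members, 9 were called positive and 1 negative, with a median of 0.69 (0.76, 0.42). Gzmn, Gzmg, Gzmc, Gzme, Gzmf and Gzmd, granzymes encoded side by side in one cluster, lay at 2.77, 2.51, 2.31, 1.87, 1.83 and 1.80. They are near copies and may share probe signal. Gzmk, from another cluster, lay at 2.61. The granzymes best known from killer cells lay much lower, Gzmb at 0.47 and Gzma at 0.31. Rab27a, which docks granules for release, lay at 1.21, and Lyst, whose loss enlarges granules, at −1.70 with probes at −2.39 and −1.01. On the Th17 and Th0 array 12 of the 22 were called positive, where 2.9% of all genes were, and the median was 1.54. Gzmk, Gzmg and Gzmc lay further out there, at 4.50, 4.03 and 3.69, while Prf1 lay at 3.24 there and 3.43 here. Gzmb lay at 2.83 and Gzma at 2.03 on the Th17 and Th0 array, past 2-fold there alone.

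Inhibitors that protect cells from their own granule proteases lay with the granzymes. Serpinb9b, Serpinb6b and Serpinb9 lay at 3.01, 2.59 and 2.42 and were the 3 positive members of 49 serpins. On the Th17 and Th0 array these 3 lay further out, at 5.61, 4.08 and 3.83. The 8 negative members (13 when centred on control genes) included Serpinb7 at −2.41 and Serpini1 at −2.05. Serpinb13 and Serpinb9d, at −3.55 and −2.31, matched a weaker channel of at most 5 units.

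Receptors of natural killer cells lay on both sides. Klrc1 and Klrc3, which encode NKG2 chains, lay at −2.49 and −2.19, and their partner Klrd1, the CD94 chain, at −1.46. Klrk1, the activating receptor NKG2D, lay at −1.17 over 3 probes. Klrb1c, the NK1.1 antigen, lay opposite at 3.22 (9.32-fold), with Cd244a at 1.97, Klrg1 at 1.82 and Klra2 at 1.65. Within the Ly49 receptors, Klra2 stood against Klra8 at −1.74, Klra23 at −1.71 and Klra4 at −1.59, the last of which matched a weaker channel of 5 units or less. Ncr1, a defining gene of natural killer cells, lay at −0.10. In all, 7 of 28 members were called negative and 5 positive, with a median of −0.39 (−0.32, −0.66).

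Growth factors and their receptors had 4 members past 2-fold out of 17, 2 on each side. Csf1, the macrophage growth factor, lay at −2.42 with probes at −2.74 and −2.10, beside Csf2 at −2.97. The receptor genes Csf2rb2 and Kit lay at 2.48 and 2.43, and Csf2ra at 0.76. Il3, the mast cell and basophil growth factor, lay at −0.14 and Kitl, the ligand of Kit, at −0.26. Other receptor genes lay below 0, with Il5ra at −0.71, Epor at −0.30, Csf3r at −0.19 and Flt3 at −0.17, and Csf1r was not measured among the named genes. Csf1 lay at 0.45 and Csf2 at −0.06 on the Th17 and Th0 array, both inside 2-fold there.

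Interferon-inducible genes lay mostly below 0. Of 52 members, 37 were below 0, 5 were called negative (10 when centred on control genes) and 2 positive, with a median of −0.26 (−0.19, −0.53). The called share on the negative side, 5 of 52, stands beside 6.92% of all genes. Ifi204, a DNA sensor, lay at −2.03, Gbp2, a guanylate-binding protein, at −1.49 and Igtp, a GTPase against intracellular pathogens, at −1.15. Ifit3, which binds foreign RNA, lay at −1.45 with 3 probes between −1.88 and −1.13. Usp18, which removes the ubiquitin-like protein ISG15, lay at −1.33. Irf8 and Ifitm6, both expressed in myeloid cells, were the positive members, at 2.34 and 1.39. Mx2, Irf7 and Gbp6 lay at 0.00, 0.01 and −0.02.

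Their promoters hold a known motif, the core of the interferon-stimulated response element, which is GAAA, any 2 bases and GAAA again, searched on both strands. Of 42 members with a RefSeq promoter, 26 (61.9%) held it, against 3.96% of 13883 named genes. Members with the motif had a median of −0.39 and those without it −0.22. Holders lay on both sides of 0, with Ifih1 at 0.75 and Bst2 at 0.35, so the motif did not fix the side. All 3 members called negative that had a promoter entry held the motif, and neither of the 2 called positive did. Windows of these 3 genes show it in capitals, at chr3:142620579-142620638 (+), chr19:34583348-34583407 (+) and chr11:58199496-58199555 (+) of GRCm38.p6.
Gbp2: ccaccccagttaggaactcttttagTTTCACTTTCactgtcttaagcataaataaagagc
Ifit3: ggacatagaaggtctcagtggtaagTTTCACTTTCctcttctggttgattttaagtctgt
Igtp: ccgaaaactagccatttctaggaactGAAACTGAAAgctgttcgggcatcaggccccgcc

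Amino acid supply was the metabolic group furthest to the positive side. Of 34 members, 12 were called positive and 0 negative, with a median of 0.77 (0.85, 0.50). The transporter genes Slc7a5 and Slc3a2, whose products pair to import large neutral amino acids, lay at 1.69 and 1.21, and Slc1a4 at 1.99. Asns, which makes asparagine, lay at 1.92 with probes at 1.71 and 2.13. The serine pathway lay on the same side throughout, with Phgdh at 1.14, Psat1 at 1.45 and Psph at 0.96, as did the mitochondrial folate enzymes Shmt2, Mthfd2 and Mthfd1l at 0.97, 1.04 and 1.33. Cth, which makes cysteine, lay at 1.37. Atf4, the transcription factor known to induce many of these genes, lay at 0.66 over 3 probes, and its targets Chac1 and Trib3 at 1.47 and 0.68.

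Enzymes that charge tRNA with amino acids had smaller values. Of 30, 5 were called positive (1 when centred on control genes) and 0 negative, with a median of 0.44 (0.52, 0.17). Eprs, Gars, Yars, Lars and Nars, the called members, are cytosolic or shared enzymes and lay at 1.60, 1.23, 1.21, 1.17 and 1.09. Of the mitochondrial enzymes, Sars2 lay at −0.23, Tars2 at −0.06 and Ears2 at 0.02, but Yars2 at 0.96 and Iars2 at 0.74.

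The motif TGATGNAA, the core of the C/EBP-ATF response element that ATF4 is known to bind, was searched on both strands in both lists. It was found in 6 of 28 amino acid supply promoters (21.4%) and 5 of 21 synthetase promoters (23.8%), against 3.61% of 13883 named genes. Synthetase genes with it had a median of 0.997 and those without it 0.12, and for amino acid supply the medians were 1.07 and 0.77. Asns, Chac1 and Gars hold it before their start, at chr6:7693210-7693269 (−), chr2:119351023-119351082 (+) and chr6:55037941-55038000 (+) of GRCm38.p6, as shown in capitals.
Asns: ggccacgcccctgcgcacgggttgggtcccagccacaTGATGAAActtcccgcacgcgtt
Chac1: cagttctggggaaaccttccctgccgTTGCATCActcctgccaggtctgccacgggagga
Gars: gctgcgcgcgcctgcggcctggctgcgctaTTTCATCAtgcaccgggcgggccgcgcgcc

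Chaperones lay mostly above 0. Of 51 members, 7 were called positive and 1 negative, with a median of 0.53 (0.61, 0.26). Centred on control genes, 4 were called positive and 4 negative. The endoplasmic reticulum chaperones Hsp90b1 and Hspa5 lay at 1.72 and 1.62, with Creld2 at 1.34 and the disulfide isomerase gene Pdia4 at 1.14. Mitochondrial chaperones Hspa9 and Hspd1 lay at 1.55 and 1.25. Heat-shock genes of the cytosol were lower, with Hspa1a at −0.81, Hspa8 at 0.20 and Hsp90aa1 at 0.78. Calr, a lectin chaperone of the endoplasmic reticulum, was the 1 negative member at −1.03, while its relative Canx lay at 0.98.

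The endoplasmic reticulum stress element, which is CCAAT, any 9 bases and CCACG, was found on either strand in 7 of 44 chaperone promoters (15.9%), against 0.166% of 13883 named genes. Members with it had a median of 0.98 and those without it 0.53. Calr holds the element too, so the motif did not fix the side. The windows of the 3 highest members that hold it lie at chr10:86705618-86705677 (−), chr2:34772004-34772063 (+) and chr15:88819499-88819558 (+) of GRCm38.p6, with the element in capitals.
Hsp90b1: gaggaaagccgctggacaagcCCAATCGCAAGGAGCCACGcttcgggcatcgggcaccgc
Hspa5: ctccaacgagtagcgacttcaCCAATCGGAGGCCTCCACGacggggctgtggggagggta
Creld2: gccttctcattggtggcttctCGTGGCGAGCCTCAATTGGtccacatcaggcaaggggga

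Lipid-handling genes that were called on the values as deposited lay on the positive side. Of 27 fatty acid and lipid genes, 7 were called positive and 0 negative, with a median of 0.31 (0.39, 0.05). Centred on control genes, 5 were called positive and 2 negative. Fabp4 and Fabp5, fatty acid carriers of fat cells and macrophages, lay at 2.96 (7.79-fold) and 1.86. Lpl, the lipase that releases fatty acids from lipoproteins, lay at 2.08 with probes at 1.48 and 2.68, and the scavenger receptor gene Cd36 at 1.32. The desaturase genes Scd1 and Scd2 lay at 1.19 and 1.49. Lysosomal genes followed in part, with Cd63 at 2.09, Atp6v0d2, a proton pump subunit of macrophages and osteoclasts, at 1.88 and Psap at 1.12. Of 30 lysosomal members 4 were called positive and 0 negative.

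Genes of cell division lay mostly above 0 and inside 2-fold. Of 51 DNA replication genes, 44 lay above 0 but 1 was called, Prim1, the primase subunit, at 1.01, and the median was 0.38 (0.46, 0.11). Of 59 mitosis genes, 48 lay above 0, with a median of 0.28 (0.35, 0.01), 2 called positive (0 when centred on control genes) and 3 negative. Ncapg, a condensin subunit, lay at 1.25 and Nek2, a centrosome kinase with a probe matching a weaker channel, at −1.52. Mki67, the Ki-67 gene, went against the list, with probes at −1.69 and −1.33. Cenpe, a centromere motor, had probes at −5.37, 0.30 and 0.41, so its mean of −1.55 rests on a single probe.

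Respiratory chain and proteasome genes were also shifted by small amounts. Of 89 respiratory chain genes, 75 lay above 0 and 2 were called, both positive, with a median of 0.35 (0.43, 0.09). Of 43 proteasome genes, 37 lay above 0 and 3 were called positive (0 when centred on control genes), with a median of 0.42 (0.49, 0.15). Psmc6, an ATPase subunit of the proteasome, had both probes past 2-fold, at 1.05 and 1.18. Cytosolic ribosomal protein genes had a median of 0.23 (0.30) that turned to −0.04 when centred on control genes, and 0 of 69 were called.

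Genes whose probes each passed 2-fold on the same side give the values least tied to a single spot. The highest were Lyz1 at 2.97, Chil4 at 2.84 and Slc18a2 at 2.61, followed by Car2, a carbonic anhydrase, at 2.40. Sema6d, a guidance molecule, lay at 2.34 with probes at 1.45 and 3.23, Cntn1, a neural adhesion gene, at 2.34, and Bex1 at 2.25. Chil3, Lpl, Plek, the pleckstrin gene of blood cells (2.08), Gpd2, the mitochondrial glycerol phosphate enzyme (1.9996), and Asns completed the 12. Of the 12, 5 (Car2, Cntn1, Sema6d, Gpd2 and Asns) were also called positive on the Th17 and Th0 array, where 2.9% of all genes were. The 12 were picked by their values on the Th1 and Th0 array, so this count does not compare the arrays.

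The lowest 12 of this kind were led by Vmn2r7, a vomeronasal receptor, at −3.46, and Calb1, a calcium-binding protein of neurons, at −3.12. Probes of 6 of these 12 matched a weaker channel of at most 5 units: those of Vmn2r7, Calb1, Slc22a30 (−2.52), St8sia1 (−2.07), Pdcl2 (−2.10) and Fgg (−1.94). The other 6 were Csf1, Nts (−2.42), Itm2a (−2.38), Apol10a (−2.17), Cyp3a41a (−2.08) and Clgn (−1.97). Itm2a, a membrane protein of developing T cells, had probes at −2.89 and −1.88.

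**Figure D5:**
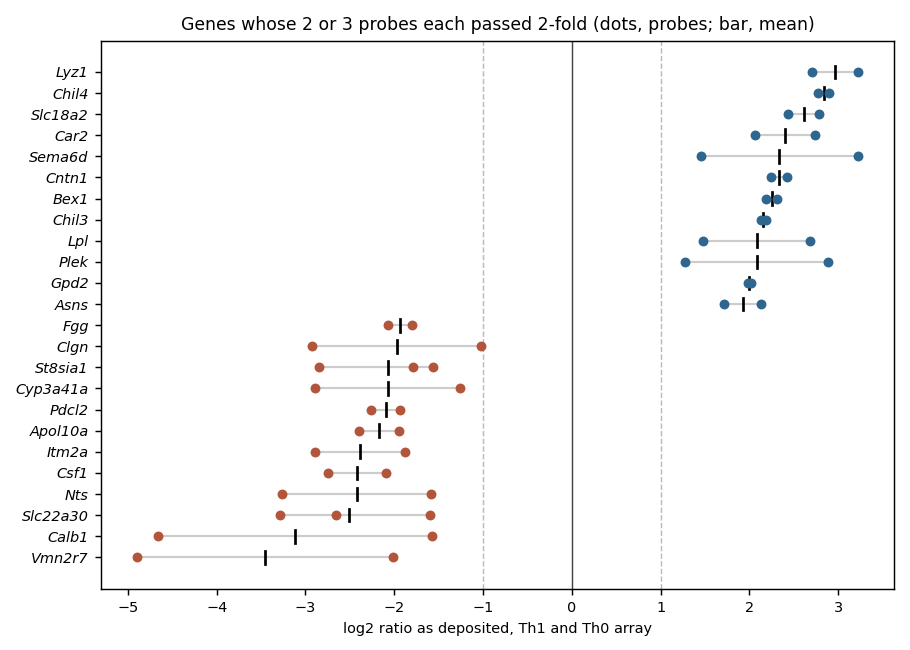
Deposited log2 ratios of the single probes (dots) and their mean (black bar) on the Th1 and Th0 array, for the 12 highest and 12 lowest genes whose 2 or 3 probes each lie past 2-fold on 1 side; dashed lines mark 2-fold. Chil3, Chil4, Bex1 and Gpd2 have nearly equal probes, while the probes of Vmn2r7 and Calb1 lie far apart.

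With 1 probe and no weak-channel match, the 10 highest genes were Dixdc1 (5.04), Ear3, Rnase2a, Ear10, Apoe, Prf1, Dsc2 (3.39), Slpi (3.37), Prss34 and Klrb1c. Dsc2 encodes a desmosome cadherin and Slpi an inhibitor of leukocyte proteases. Dixdc1, an actin-binding protein of the Wnt pathway, lay at 5.02 on the Th17 and Th0 array too, Dsc2 at 5.79 and Slpi at 3.22. Leaving out clone names, the 10 lowest were Olfr820 (−6.21), Olfr1290 (−5.85), Dkk2 (−4.98), Meox2 (−4.57), Ms4a4c (−4.43), Olfr1462 (−4.04), an immunoglobulin kappa variable segment (−3.74), Arvcf (−3.58), Jakmip2 (−3.47) and Zfp407 (−3.34). The 3 olfactory receptors among them belong to a family with 135 of 892 members called negative and 5 positive.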

How the data were processed

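The authors deposited 1 log2 ratio per probe and array. That the values are log2 was read from the values themselves, whose repeated entries lie apart by log2 of small whole-number ratios around a most repeated value of −0.8485 (110 probes). Per the labels' protocols, each labelling started from 500 ng of total RNA and used amino allyl dye coupling after amplification; scanner, background correction, normalisation and numerator are not given in the sources used here. Signal depth is unknown.

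Probes were named through the platform's annotation, which is old, by gene number (26774 matched, 152 kept the platform's symbol). Probes with several genes (203) or no gene here (9418) were left out. Probes of a gene were averaged on the log2 scale (pandas 2.3.3, NumPy 2.4.6). No test was possible with 1 array. A weaker channel was searched as a whole number of 1 to 5 units that makes the ratio to −0.8485 whole within 0.0001 on the log2 scale, and the search was tested on simulated data. A rule set which genes could be named: the markers, all members of lists with up to 12, the 10 largest members of longer lists, and the extreme genes given at the end of the report. Not all of these are printed, and which were printed, and the further members given for contrast, were chosen after their values were seen. The members, lists and motifs were chosen with earlier results of these data known. Alternatives were both centrings, the median of probes, leaving out weak-channel probes, genes with several probes of 1 sign, and folds of 1.5 and 3.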

Additional observations from a re-analysis of the deposited data

How the results depend on the processing

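With 1 array per comparison, no replicate, dye swap or batch could be examined, and no paired analysis was possible because each group has 1 array. The count of 1784 genes past 2-fold became 4545 at 1.5-fold, 608 at 3-fold and 316 among genes with several probes of 1 sign, where 203 were negative and 113 positive. Centred on control genes, 2105 were negative and 311 positive. Of 298 list medians computed under an alternative, 272 kept their sign and stayed within the SD between probes, and 25 changed sign. Centred on the median gene, the sign turned for Th1 transcription factors (0.0523), chemokines (0.0151), MHC class I (0.0731), other C-type lectins (0.0241), dendritic cell genes (0.0402), S100 proteins (0.0137), adhesion genes (0.0228) and histones (0.0599). Centred on control genes, it turned for regulatory T cell genes (−0.15), red cell genes (−0.0635), Fc receptors (−0.0132), cathepsins (−0.12), integrins (−0.25), inhibitory and costimulatory receptors (−0.15), AP-1 genes (−0.21), glycolysis (−0.014), cytosolic ribosomal proteins (−0.0402) and chromatin enzymes (−0.24). Among genes with several probes of 1 sign, it turned for MHC class I (0.19), other C-type lectins (0.36), Fc receptors (−0.17), inhibitory and costimulatory receptors (−0.48) and chromatin enzymes (−0.16), and the macrophage median moved to 1.35. With the median of probes, it turned for integrins (−0.0104) and adhesion genes (0.0213), Cenpe turned to 0.30 and H3c7 moved to −1.98. Beyond the construction of each alternative, the cause was not tested. Signal over background is unknown.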

Other observations

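The 9621 probes that carry no gene or several genes in the annotation used here stood apart from the one-gene probes on the Th1 and Th0 array. Of them, 13.5% lay at least 2-fold on the negative side and 1.31% on the positive side, against 7.02% and 3.44% of the one-gene probes. Their identity was not analysed here.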
